A study of Mus musculus with 52 samples.

Results

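Primitive and visceral endoderm is represented here by 10 genes, Gata6, Sox17, Dab2, Lama1, Lamb1, Lamc1, Sparc, Ttr, Apoe and Afp. They were taken by gene symbol from the array's annotation, and make up 10 of the 9030 named genes and 17 of the 20794 spots. The rule uses no values, but these genes and the lists of other genes below were chosen with earlier results of these data known. Expression was compared between 7 mouse embryonic stem (ES) cell lines on 52 two-colour cDNA arrays, 4 for each of 13 direct comparisons of a pair of lines. HM-1, which is known as a parental line for gene targeting, was set against each of the other 6, namely ZFCUMNT, PDCUMNT, B6PGA, B6NT, #4 (B6) and HM-1 NT. The series description says that donor nuclei came from different sources, and that cumulus cells supplied them for a pair of lines made with different cloning methods. No treatment or genotype is given beyond these names, in which NT, B6, PGA, PD and ZF are not explained. The labels give no culture conditions, and do not say whether the 4 arrays of a comparison came from separate cultures. The p-values therefore measure the spread between arrays, which may be technical.

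Primitive endoderm is the layer that forms beside the epiblast in the blastocyst, and it gives rise to the visceral and parietal endoderm of the yolk sac. FGF signalling through the MAPK cascade favours its fate, the transcription factors GATA6 and SOX17 specify it, and its cells lay down a basement membrane of laminin and SPARC and later secrete carrier proteins such as transthyretin, apolipoprotein E and alpha-fetoprotein. In ES cell cultures these genes are known to rise when cells leave the pluripotent state towards extraembryonic endoderm.

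Every value below is a log2 ratio of the second-named line to the first-named line. In each comparison the second-named line carried Cy5 on arrays 1 and 2 and Cy3 on arrays 3 and 4, and the ratios were turned by these labels. The dye in the numerator of the deposited ratios is not stated. If it is Cy5, a positive value means higher in the second-named line, and if it is Cy3 every sign turns at once. Over all features, turned arrays of opposite dye orientation had a mean rank correlation from -0.49 in HM-1 vs #4 (B6) to 0.01 in #4 (B6) vs B6NT, below 0 in 12 of the 13 comparisons. Arrays of the same orientation correlated at 0.11 to 0.59. These correlations do not settle which way HM-1 vs HM-1 NT (-0.22) and HM-1 vs #4 (B6) run, and the orientation of HM-1 vs B6NT (-0.04) was taken as doubtful from earlier checks of these data. For the members the fit over lines is given with and without these 3 comparisons, in full only for Sparc and Apoe. For the other gene lists and for single spots it is given only with them. Correlations were near or below 0 in comparisons that were kept, too. HM-1 NT vs ZFCUMNT was at -0.16, HM-1 vs ZFCUMNT at -0.10 and HM-1 vs B6PGA at -0.01. In HM-1 NT vs ZFCUMNT arrays of the same orientation correlated at only 0.11. The fit without the 3 doubtful comparisons is therefore not one of settled orientation. A ratio holds no level, so it could not be checked whether any line expresses a marker at all, and fewer cells of a type cannot be told apart from less RNA per cell.

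Promoter windows from RefSeq (GRCm38.p6), 250 bases before to 50 after a transcript start, were matched for 5 of the 10 genes (Sparc, Apoe, Lamb1, Dab2 and Afp). Those of Sparc and Apoe are printed because these genes differed between the lines, and that of Dab2 because it alone held a searched motif. The motifs were AGATAA and TGATAA, letters that GATA factors can bind, and AACAAT, letters that SOX factors can bind, each on both strands. Sparc lies on chromosome 11 and its window is chr11:55420031-55420330 on the minus strand. Apoe, on chromosome 7, had 3 windows, of which the farthest upstream is chr7:19699139-19699438 on the minus strand. The Dab2 window farthest upstream is chr15:6299539-6299838 on the plus strand, and capitals mark the motif matches.
Sparc: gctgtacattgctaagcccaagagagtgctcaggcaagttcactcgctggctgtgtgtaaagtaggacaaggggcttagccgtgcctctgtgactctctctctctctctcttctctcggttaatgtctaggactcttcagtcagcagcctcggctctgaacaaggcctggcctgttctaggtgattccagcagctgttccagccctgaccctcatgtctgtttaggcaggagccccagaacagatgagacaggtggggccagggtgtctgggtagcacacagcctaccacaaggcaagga
Apoe: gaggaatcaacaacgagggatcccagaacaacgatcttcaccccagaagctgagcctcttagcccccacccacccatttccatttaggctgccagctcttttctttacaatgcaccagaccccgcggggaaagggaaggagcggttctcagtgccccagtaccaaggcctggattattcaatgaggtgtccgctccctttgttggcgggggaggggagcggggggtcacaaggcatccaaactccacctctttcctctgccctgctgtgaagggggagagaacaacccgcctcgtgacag
Dab2: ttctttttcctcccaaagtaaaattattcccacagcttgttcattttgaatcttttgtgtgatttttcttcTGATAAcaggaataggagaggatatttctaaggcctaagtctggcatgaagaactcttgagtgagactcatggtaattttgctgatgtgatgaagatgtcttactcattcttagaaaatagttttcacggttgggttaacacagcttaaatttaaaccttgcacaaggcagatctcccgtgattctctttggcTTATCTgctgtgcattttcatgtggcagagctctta
The printed Dab2 window held 1 TGATAA and, on the other strand, 1 AGATAA, which reads TTATCT in the printed strand. Another Dab2 window, chr15:6386498-6386797 on the plus strand, held 0 matches. The windows of Sparc, Apoe, Lamb1 and Afp held 0 matches of the 3 motifs. Of 32851 promoter windows in the table, 11.2% held AGATAA, 9.05% TGATAA and 10.7% AACAAT. These matches describe letters in a window and say nothing of binding in these cells.

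Across the 13 comparisons few of the endoderm markers differed between lines, and those that passed the test did so mainly in 1 comparison, HM-1 vs B6PGA. Of 110 member values tested with limma, 4 passed an adjusted p of 0.05 (Benjamini-Hochberg over all features of a comparison), and all 4 were positive. Over all features 1096 of 205999 values passed, or 0.532%. In HM-1 vs B6PGA 3 of 8 members tested passed (Ttr, Sparc and Apoe), where 0.494% of all features passed. In #4 (B6) vs ZFCUMNT 1 of 9 passed (Apoe), where 0.935% of all features passed.

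**Figure D1:**
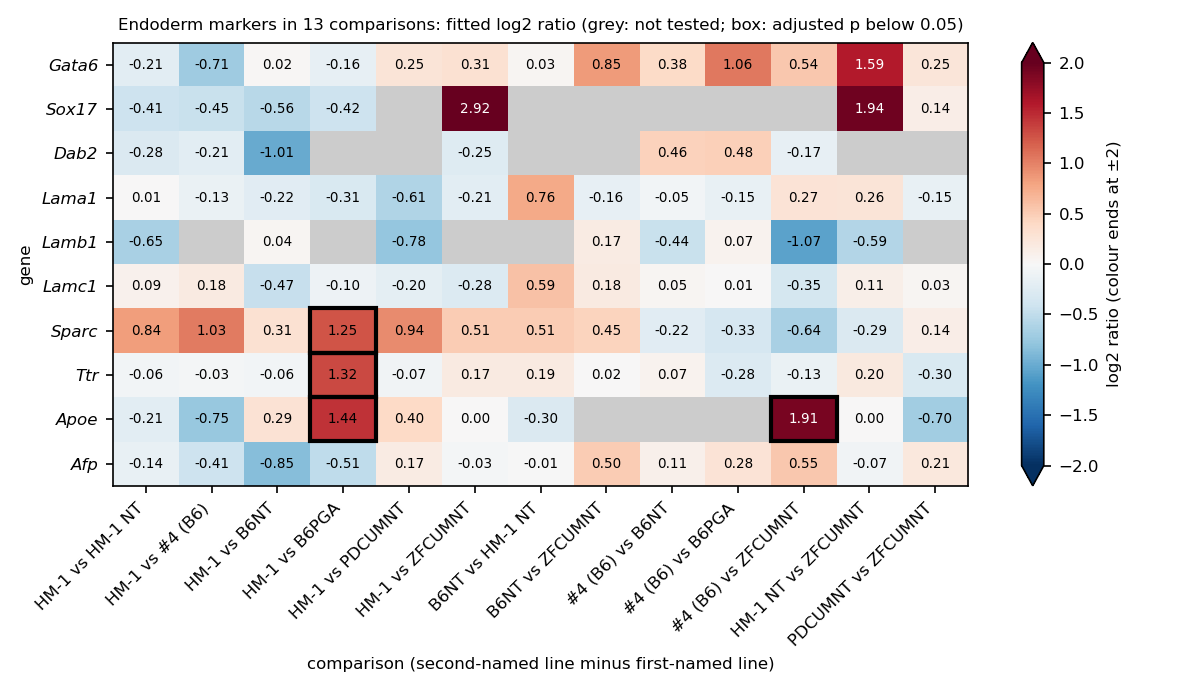
Fitted log2 ratio of each endoderm marker (rows) in each of the 13 comparisons (columns), second-named minus first-named line. Colour ends at 2 on either side of 0, grey cells were not tested, and the 4 boxed cells passed the adjusted p of 0.05, 3 of them in HM-1 vs B6PGA and 1 in #4 (B6) vs ZFCUMNT.

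In the other 11 comparisons limma called 0 members. The members with an unadjusted p below 0.05 there were as follows, each beside the share of all features with such a p. HM-1 vs HM-1 NT had 1 of 10 (Sparc), where 6.41% of features did. HM-1 vs #4 (B6) had 2 of 9 (Sparc and Apoe), where 3.91% did, and HM-1 vs B6NT had 1 of 10 (Afp), where 5.21% did. In HM-1 vs PDCUMNT it was 1 of 8 (Sparc) against 11.1% of features, and in HM-1 vs ZFCUMNT 1 of 9 (Sox17) against 4.82%. B6NT vs HM-1 NT had 2 of 7 (Lama1 and Lamc1) against 9.87%, and HM-1 NT vs ZFCUMNT 1 of 9 (Gata6) against 8.71%. A count of 1 is the smallest above 0 that so few members can give. None had such a p in B6NT vs ZFCUMNT (7 tested, 5.21% of features), #4 (B6) vs B6NT (8 tested, 4.5%), #4 (B6) vs B6PGA (8 tested, 10.2%) or PDCUMNT vs ZFCUMNT (8 tested, 11.8%). The adjusted threshold was passed by 0.254% of features in HM-1 vs HM-1 NT, 0.219% in HM-1 vs #4 (B6), 0.17% in HM-1 vs B6NT, 1.14% in HM-1 vs PDCUMNT and 0.101% in HM-1 vs ZFCUMNT. It was passed by 1.04% in B6NT vs HM-1 NT, 0.292% in HM-1 NT vs ZFCUMNT, 0.124% in B6NT vs ZFCUMNT, 0.245% in #4 (B6) vs B6NT, 1.22% in #4 (B6) vs B6PGA and 0.763% in PDCUMNT vs ZFCUMNT. The members had both signs in every comparison. The fewest were positive in HM-1 vs #4 (B6), 2 of 9, where 45.2% of all features were positive. The most were positive in B6NT vs ZFCUMNT, 6 of 7, where 57.3% of all features were. The median absolute value of the members ran from 0.16 to 0.54, and that of all features from 0.19 to 0.37.

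A joint fit gave each line 1 level relative to the mean of the 7 lines, and a moderated F-test asked whether the levels differed. Of the 10 members 8 were measured on enough arrays (39 of 52), and 2 passed, Sparc and Apoe, where 3.23% of all 15706 features passed. The F of Sparc was 11.7 (adjusted p = 1.1e-05) and that of Apoe 4.97 (adjusted p = 0.0273). The adjusted p was 0.237 for Afp, 0.269 for Gata6, 0.498 for Ttr, 0.700 for Lamc1, 0.799 for Lama1 and 0.917 for Lamb1. Sox17, measured on 32 arrays, and Dab2, on 36, were not tested. Without the 3 comparisons of unsettled orientation Sparc passed (F = 6.75, adjusted p = 0.0111) and Apoe did not (F = 3.30, adjusted p = 0.252), where 1.18% of features passed.

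**Figure D2:**
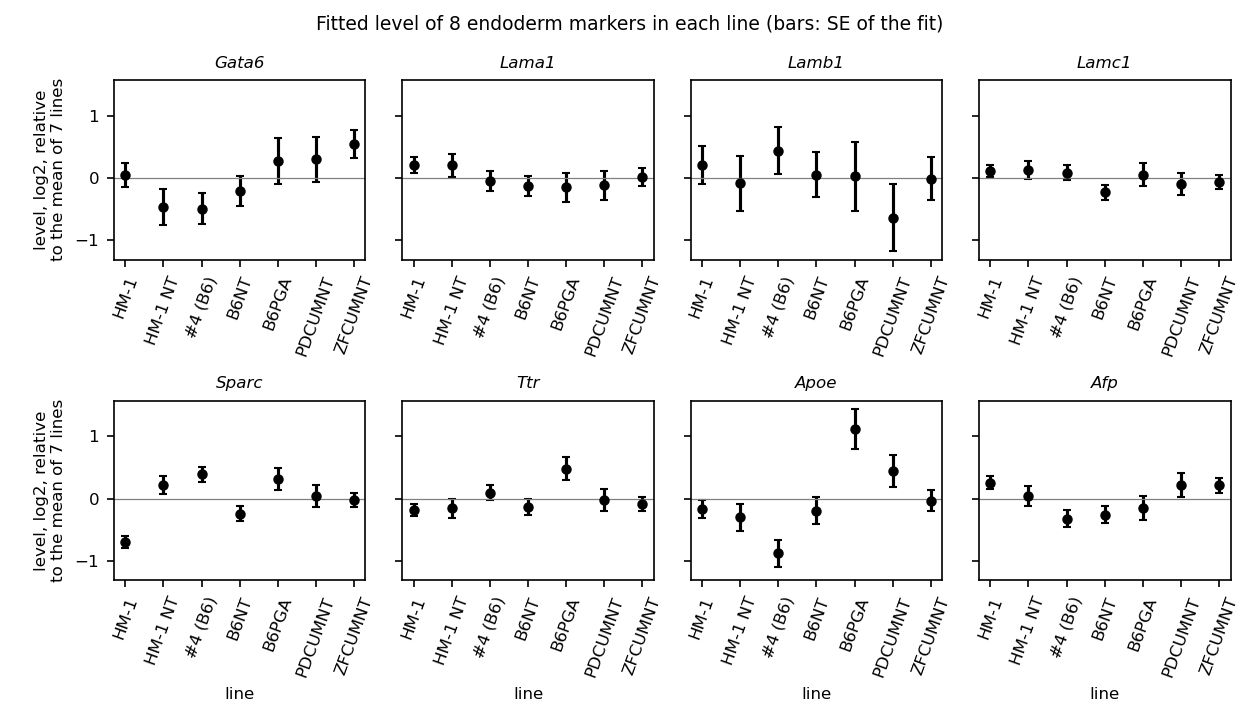
Fitted level of 8 endoderm markers in each of the 7 lines, on the log2 scale relative to the mean of the lines. Points are levels and bars the SE of the fit; Sparc was lowest in HM-1 (-0.70) and Apoe highest in B6PGA (1.12).

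The transcription factors come first. Gata6 (Entrez gene 14465, chromosome 18), a zinc finger factor whose expression alone can turn ES cells into primitive endoderm, was tested in all 13 comparisons and passed in none, with 1 unadjusted p below 0.05. That was in HM-1 NT vs ZFCUMNT, where the 4 arrays gave 2.58, 0.71, 3.54 and -0.46. Arrays 1, 2 and 3 were positive and array 4 negative. The fitted value was 1.59 ± 0.55 (SE, n = 4, adjusted p = 0.292), and 2.45 ± 0.59 (adjusted p = 0.0401) without array 4. In B6NT vs ZFCUMNT all 4 arrays of Gata6 were positive, at 1.10, 0.43, 0.90 and 0.98, with a value of 0.85 ± 0.55 (adjusted p close to 1). Its value in #4 (B6) vs B6PGA was 1.06 ± 0.55 (adjusted p = 0.538), and without array 4, at 3.69, it was 0.31. By line the Gata6 level ran from -0.50 ± 0.25 in #4 (B6) to 0.55 ± 0.22 in ZFCUMNT. Gata6 also had a dye effect, -0.45 ± 0.16 (Cy5 over Cy3, limma unadjusted p = 0.00719, adjusted p = 0.0290 over all features), which the fit removed. An adjusted p this near the unadjusted one arises where dye effects are common over all features, so a dye effect is not particular to Gata6.

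Sox17 (Entrez gene 20671, chromosome 1), an HMG-box factor that acts beside GATA6 in primitive endoderm, was measured on 32 of 52 arrays and tested in 7 comparisons. In HM-1 vs ZFCUMNT its 3 measured arrays gave 3.25, 3.52 and 2.54, all positive. The value of 2.92 ± 1.11 (n = 3) had an unadjusted p of 0.0143 and an adjusted p of 0.687. In HM-1 NT vs ZFCUMNT the 4 arrays gave 1.78, 1.20, 1.96 and 2.84, again all positive, with a value of 1.94 ± 0.95 (adjusted p = 0.583). Elsewhere its arrays scattered widely, from -3.98 in PDCUMNT vs ZFCUMNT to 6.06 in #4 (B6) vs ZFCUMNT. Its residual SD between arrays was 2.04, the highest of the 10 members, where the median feature had 0.90. The SE of its tested values was 0.95 to 1.11.

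Dab2 (Entrez gene 13132, chromosome 15), an endocytic adaptor that primitive endoderm cells need to form an outer layer, was measured on 36 arrays and tested in 7 comparisons. None passed, and none had an unadjusted p below 0.05. Dab2 had the largest dye effect of the members, 0.83 ± 0.25 (limma unadjusted p = 0.00280, adjusted p = 0.0144), 1 of many over all features. Its arrays of HM-1 vs HM-1 NT gave 0.85 and 0.86 with the second-named line in Cy5, and -1.08 and -1.75 in Cy3. HM-1 vs #4 (B6) showed the same split, with 0.48 and 1.31 in Cy5 and -1.39 and -1.24 in Cy3. In both comparisons the sign differed between the dye orientations as labelled, and the fitted values were -0.28 ± 0.71 and -0.21 ± 0.71. With the ratios as they stand, not turned, they were 1.14 and 1.10. The orientation of both comparisons is doubtful, so a dye effect and a difference between lines cannot be told apart for Dab2 here. The most negative value, -1.01 ± 0.83 in HM-1 vs B6NT, rested on 3 arrays at 0.76, 0.13 and -3.11.

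The laminin chains Lama1, Lamb1 and Lamc1 (alpha 1, beta 1 and gamma 1) together form an early laminin of the embryonic basement membrane. None passed in any comparison. Lama1 (Entrez gene 16772, chromosome 17) was most positive in B6NT vs HM-1 NT, where the 4 arrays gave 1.05, 0.66, 0.83 and 0.52. All 4 were above 0, and the value was 0.76 ± 0.36 (adjusted p = 0.462). Lamc1 (Entrez gene 226519, chromosome 1) was also positive on all 4 arrays there, at 0.75, 0.73, 0.35 and 0.52, with a value of 0.59 ± 0.28 (adjusted p = 0.479). All 4 arrays had 1 sign for 16.9% of features in that comparison.

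Lamb1 (Entrez gene 16777, chromosome 12) had only 2 measured arrays in that comparison and was not tested there. Over the 8 comparisons in which it was tested its values ran from -1.07 ± 0.86 in #4 (B6) vs ZFCUMNT to 0.17 ± 0.74 in B6NT vs ZFCUMNT. On the arrays of HM-1 against HM-1 NT it ran from -2.86 to 2.64, so the arrays of a single comparison covered most of its range. Its residual SD was 1.56. In #4 (B6) vs B6NT, by contrast, the 4 arrays of Lamb1 lay close together at -0.34, -0.35, -0.53 and -0.55, with a value of -0.44 ± 0.74 (adjusted p close to 1).

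The 3 spots of Lamc1 did not follow each other. Tested singly, spot 7599 passed the F-test over lines (F = 4.83, adjusted p = 0.0252), and spots 18070 and 18460 did not (adjusted p = 0.878 and 0.686). Of all spots tested singly, 3.22% passed. Spot 7599 was highest in B6PGA (0.46 ± 0.22), HM-1 NT (0.39 ± 0.17) and HM-1 (0.32 ± 0.11) and lowest in B6NT (-0.35 ± 0.15) and ZFCUMNT (-0.34 ± 0.13). In B6PGA spot 18070 was at -0.43 ± 0.39, on the other side of 0.

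Sparc (Entrez gene 20692, chromosome 11) encodes osteonectin, a collagen-binding matrix glycoprotein that parietal endoderm makes in large amounts and that fibroblasts also secrete. It was the member that differed most clearly between the lines, with all 6 comparisons of HM-1 positive. On the 24 arrays that carried HM-1 its value was positive on 23, from -0.24 over a median of 0.89 to 1.70. On the 28 arrays without HM-1 it was positive on 11, from -1.61 over a median of -0.09 to 1.47. The ranges overlap. On the arrays without HM-1 the sign depends on which line was named first, so their count and median are no baseline for those with HM-1.

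In HM-1 vs B6PGA the 4 arrays of Sparc gave 1.43, 1.17, 0.85 and 1.57, all positive, for a value of 1.25 ± 0.27 (n = 4, adjusted p = 0.0134). HM-1 vs #4 (B6) gave 1.22, 1.08, 0.15 and 1.68, with a value of 1.03 ± 0.27 (adjusted p = 0.136). Array 3 is the lowest and array 4 the highest. Without array 3 the value was 1.29 ± 0.31 (adjusted p = 0.0452), and without array 4 it was 0.76 ± 0.30 (adjusted p = 0.753). With the ratios of all arrays left as they stand, not turned, Sparc was at 0.12 and Apoe at -0.40 in HM-1 vs #4 (B6). HM-1 vs PDCUMNT gave 1.70, 0.86, 0.99 and 0.20, with a value of 0.94 ± 0.27 (adjusted p = 0.0741). HM-1 vs HM-1 NT gave 0.62, 1.04, 0.91 and 0.78, a value of 0.84 ± 0.27 (adjusted p = 0.262). HM-1 vs #4 (B6), HM-1 vs PDCUMNT and HM-1 vs HM-1 NT were positive on all 12 arrays, and none of the 3 values passed.

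The smaller Sparc values were those of HM-1 vs ZFCUMNT and HM-1 vs B6NT. The arrays of HM-1 vs ZFCUMNT were at 0.65, 0.99, 0.28 and 0.12 (value 0.51 ± 0.27, adjusted p close to 1). Those of HM-1 vs B6NT were at 0.91, 0.54, -0.24 and 0.03 (value 0.31 ± 0.27, adjusted p close to 1). Array 3 of the latter was the only negative array of Sparc among the 24.

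Among the comparisons without HM-1 the most negative Sparc value was in #4 (B6) vs ZFCUMNT, with arrays at -0.33, -0.74, -0.46 and -1.04 and a value of -0.64 ± 0.27 (adjusted p = 0.262). In #4 (B6) vs B6NT all 4 arrays were negative as well, at -0.02, -0.18, -0.47 and -0.21, for a value of -0.22 ± 0.27 (adjusted p close to 1). B6NT vs HM-1 NT had a value of 0.51 ± 0.27 (adjusted p = 0.561) with 3 of 4 arrays positive. In all, Sparc had 1 sign on all 4 arrays in 8 of 13 comparisons, 6 positive and 2 negative, where on average 14.3% of features did.

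Sparc was read by 3 spots. The most even was spot 11119, which was positive on 24 of the 24 arrays with HM-1, from 0.21 over a median of 0.74 to 1.61. Before turning, its deposited ratio was positive on 12 of 12 arrays with HM-1 in Cy3 and negative on 12 of 12 with HM-1 in Cy5, those of the 3 comparisons of unsettled orientation included. Its sign thus followed the labelled place of HM-1 on each of these arrays. Spot 5169 was positive on 20 of the 24 arrays and spot 8503 on 18, so the other spots followed the labels less closely. With HM-1 in Cy3 their deposited ratios were positive on 11 of 12 arrays (5169) and 12 of 12 (8503). With HM-1 in Cy5 they were negative on 9 of 12 (5169) and 6 of 12 (8503). Tested singly, spot 11119 passed in HM-1 vs B6PGA (1.44 ± 0.20, adjusted p = 4.5e-05), where 0.527% of all spots passed, and in HM-1 vs #4 (B6) (0.91 ± 0.20, adjusted p = 0.0343), where 0.222% did. In the F-test over lines spots 11119 and 5169 passed (adjusted p = 2.2e-08 and 0.00612) and spot 8503 did not (adjusted p = 0.190).

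**Figure D3:**
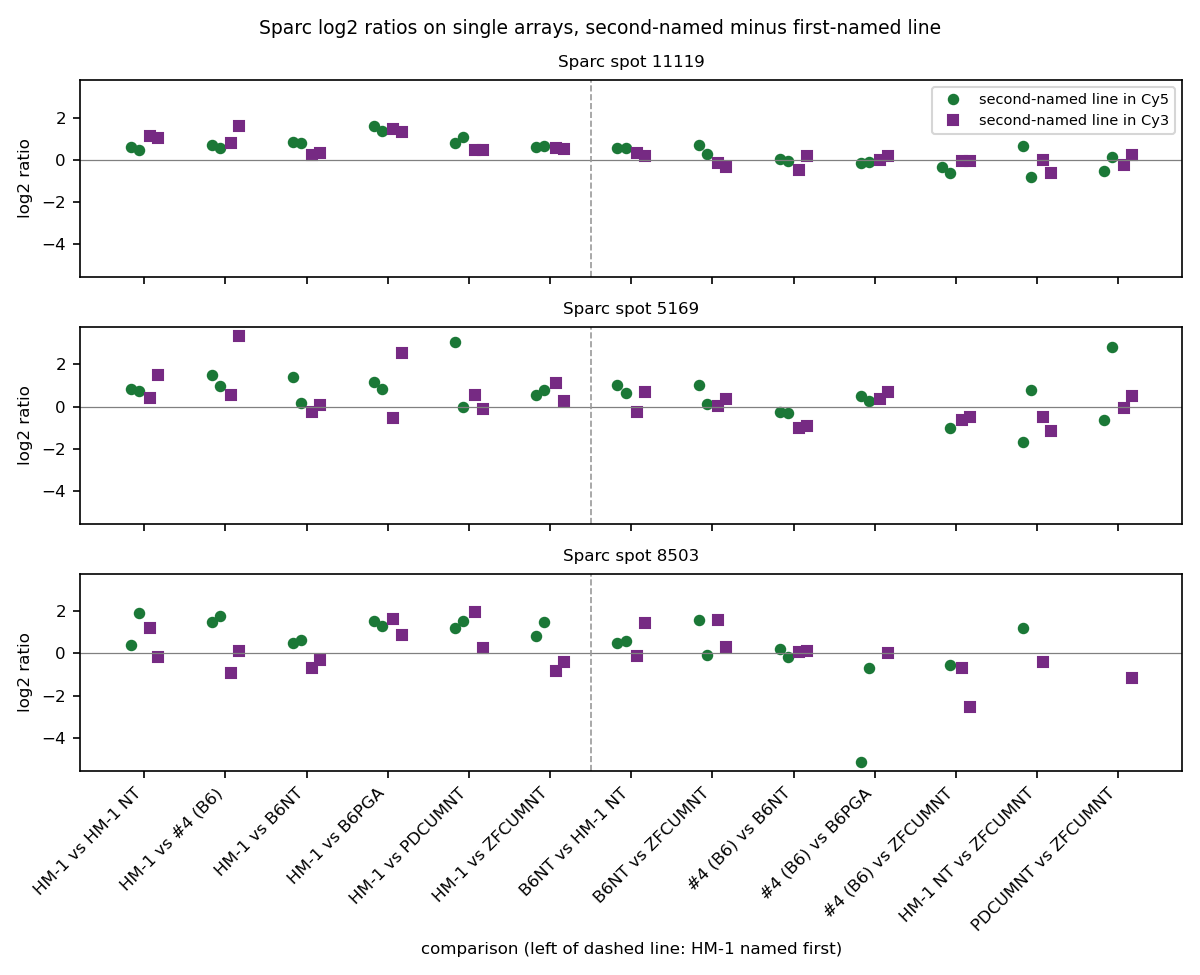
Log2 ratio of the 3 Sparc spots on each array (points), by comparison, second-named minus first-named line, with circles for arrays with the second-named line in Cy5 and squares for Cy3. Left of the dashed line HM-1 is the first-named line, and there spot 11119 lies above 0 on 24 of 24 arrays, between 0.21 and 1.61.

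In the line fit Sparc was lowest in HM-1, at -0.70 ± 0.09. The order then rose through B6NT (-0.24 ± 0.12), ZFCUMNT (-0.02 ± 0.11), PDCUMNT (0.04 ± 0.18), HM-1 NT (0.22 ± 0.14) and B6PGA (0.31 ± 0.18) to #4 (B6) (0.39 ± 0.12). Of the 21 pairs of lines 5 passed for Sparc, each of them a line against HM-1. Relative to HM-1 the level was higher by 1.09 ± 0.16 in #4 (B6) (adjusted p = 1.6e-05, 0.847% of features called in that pair) and by 0.92 ± 0.18 in HM-1 NT (adjusted p = 0.00298, 0.783% called). It was higher by 1.01 ± 0.21 in B6PGA (adjusted p = 0.00630, 0.643% called) and by 0.67 ± 0.15 in ZFCUMNT (adjusted p = 0.00956, 1.24% called). In PDCUMNT the difference was 0.74 ± 0.21 (adjusted p = 0.0482, 1.78% called). That of B6NT, 0.45 ± 0.16, did not pass (adjusted p = 0.303, 0.879% called).

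Without the 3 comparisons of doubtful orientation Sparc was again lowest in HM-1 (-0.83 ± 0.16) and highest in #4 (B6) (0.43 ± 0.16). Between them stood B6NT (-0.15 ± 0.16), PDCUMNT (-0.02 ± 0.20), ZFCUMNT (-0.02 ± 0.12), B6PGA (0.26 ± 0.20) and HM-1 NT (0.32 ± 0.20). Of the 21 pairs 2 then passed for Sparc. Those were #4 (B6) minus HM-1, at 1.26 ± 0.26 (adjusted p = 0.0114, 0.278% of features called), and B6PGA minus HM-1, at 1.09 ± 0.24 (adjusted p = 0.0249, 0.4% called). HM-1 NT minus HM-1 was 1.14 ± 0.30 (adjusted p = 0.282, 0.0194% called) and ZFCUMNT minus HM-1 was 0.81 ± 0.21 (adjusted p = 0.0925, 0.349% called). PDCUMNT minus HM-1 was 0.80 ± 0.23 (adjusted p = 0.0907, 0.82% called) and B6NT minus HM-1 was 0.68 ± 0.28 (adjusted p = 0.695, 0.123% called). All 6 lines lay above HM-1 in this fit too, and 3 of the 5 differences that passed on all arrays no longer did.

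No step between neighbouring lines in the order of levels passed the adjusted threshold for any member. Of 48 such steps over the 8 members 0 passed in limma, and 1 had an unadjusted p below 0.05, that from HM-1 to B6NT for Sparc (0.45 ± 0.16, unadjusted p = 0.00823, adjusted p = 0.303). The next step, from B6NT to ZFCUMNT, was 0.22 ± 0.17 (adjusted p = 0.893).

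On each array 20 to 174 spots shared 1 constant top value, which was taken as not measured. Spot 5169 had it on 1 array, array 1 of #4 (B6) vs ZFCUMNT, and with top values kept the Sparc value in HM-1 vs B6PGA was the same with an adjusted p of 0.890 and the F over lines fell to 2.08 (adjusted p = 0.407). In #4 (B6) vs ZFCUMNT itself Sparc turned from -0.64 to 1.57 (adjusted p = 0.266). Lamc1 spot 18460 had the top value on 1 array too, and with it kept Lamc1 in HM-1 NT vs ZFCUMNT turned from 0.11 to -1.26 (adjusted p = 0.186). With top values taken as not measured, leaving out array 1 of HM-1 vs B6PGA gave Sparc in that comparison an adjusted p of 0.0679. Leaving out array 4 gave Sparc one of 0.125.

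The genes whose 13 comparison values were most like those of Sparc, among 6451 genes tested in all 13, were Fkbp9 (Pearson r = 0.874), an endoplasmic reticulum prolyl isomerase, Mogs (r = 0.869), a glucosidase of N-glycan processing, and Vim (r = 0.867), the intermediate filament of mesenchymal cells. The comparisons share lines, so these correlations are a description.

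Genes of fibroblasts, the cells commonly used as feeders for ES lines, moved with Sparc in part. Of 17 fibroblast and feeder markers on the array and tested in HM-1 vs B6PGA, 16 were positive, where 45.2% of all features were. Of these markers 7 passed (Lox, Col3a1, Fbln2, Col1a1, Vim, Col1a2 and Fn1), where 0.494% of all features passed. The median of the list was 0.97, where the median of all features was -0.04. Col3a1, a fibrillar collagen chain, was at 1.64 ± 0.25 (adjusted p = 0.000176) and Lox, which crosslinks collagen, at 1.31 ± 0.20 (adjusted p = 0.000168). The median of these markers was 0.47 in HM-1 vs #4 (B6) (13 of 16 positive), 0.36 for HM-1 NT against HM-1 (13 of 17), 0.11 in HM-1 vs B6NT (9 of 16) and 0.10 in HM-1 vs ZFCUMNT (10 of 17). In HM-1 vs PDCUMNT, where Sparc was at 0.94, it was -0.01 with 8 of 17 positive. Over the 13 comparisons, which share lines, the Pearson correlation of Sparc with the list median was 0.656.

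By line the fibroblast list had its lowest median levels in B6NT (-0.31, genes from -0.66 to 0.14) and HM-1 (-0.28, from -0.53 to 0.32) and its highest in B6PGA (0.40, from -0.15 to 0.92). In #4 (B6), the line in which Sparc was highest, the list median was 0.06 (genes from -0.42 to 0.67). In the F-test over lines 9 of its 16 tested genes passed (Vim, Timp3, Fbln2, Col1a1, Lox, Col3a1, Col6a1, Col1a2 and Col5a1), where 3.23% of all features passed. The part of fibroblasts in the Sparc values was not tested.

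**Figure D4:**
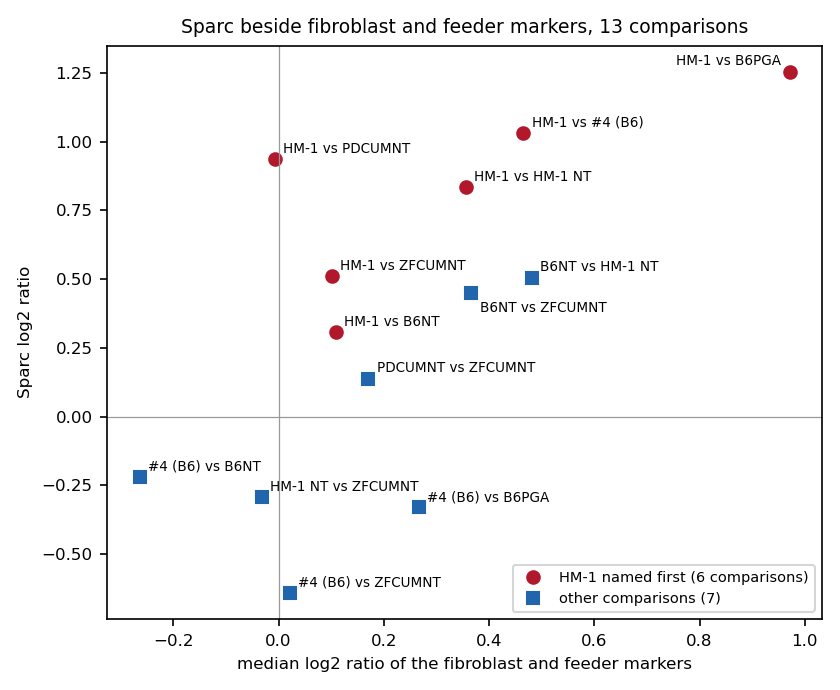
Fitted log2 ratio of Sparc (vertical axis) against the median log2 ratio of the fibroblast and feeder markers (horizontal axis) in each of the 13 comparisons, with circles for the 6 that name HM-1 first and squares for the other 7. HM-1 vs B6PGA is highest on both axes (1.25 and 0.97), while HM-1 vs PDCUMNT has a Sparc value of 0.94 at a marker median of -0.01.

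Ttr (Entrez gene 22139, chromosome 18), which encodes transthyretin, the carrier of thyroid hormone and retinol-binding protein that visceral endoderm secretes, passed in 1 of 13 comparisons, HM-1 vs B6PGA. The means of its 2 spots on the 4 arrays were 0.24, 0.59, 2.13 and 2.30, and the fitted value was 1.32 ± 0.25 (adjusted p = 0.00346). The spots did not agree. Spot 2267 gave 0.38, 0.35, 4.45 and 4.76, and spot 51 gave 0.10, 0.83, -0.18 and -0.16. The high readings were those of spot 2267 on arrays 3 and 4, both with B6PGA in Cy3. Without array 3 the value of Ttr was 1.05 (adjusted p = 0.0733) and without array 4 it was 0.99 (adjusted p = 0.0991).

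In the other 12 comparisons the values of Ttr lay between -0.30 and 0.20 with SEs of 0.25, and its residual SD of 0.46 was the lowest of the members. In #4 (B6) vs B6PGA, the other comparison that holds B6PGA, its arrays gave 0.31, -0.73, -0.29 and -0.40, for a value of -0.28 ± 0.25 (adjusted p = 0.846). The direct comparison of HM-1 with #4 (B6) gave -0.03 ± 0.25 for Ttr. A closure test, added after the values were seen, asked whether the 13 comparisons of a gene fit 7 line levels. Of all features 0.146% failed it. Of the 8 members 0 failed at the adjusted threshold in limma's variance model, and 2 had an unadjusted p below 0.05, Ttr (0.0141, adjusted p = 0.507) and Apoe (0.0296, adjusted p = 0.618), where 7.19% of all features had one.

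Apoe (Entrez gene 11816, chromosome 7), the lipoprotein ligand of the LDL receptor family that visceral endoderm secretes among other cells, was read by 1 spot on 44 of 52 arrays and tested in 10 comparisons. In HM-1 vs B6PGA its 4 arrays gave 1.60, 1.60, 1.30 and 1.26, all positive and close together. The value was 1.44 ± 0.35 (n = 4, adjusted p = 0.0493). It did not pass when any of these 4 arrays was left out (adjusted p from 0.119 to 0.174, values from 1.40 to 1.49).

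In #4 (B6) vs ZFCUMNT the 3 measured arrays of Apoe gave 3.34, 0.98 and 1.36, again all positive, for a value of 1.91 ± 0.41 (n = 3, adjusted p = 0.0132). Array 2 is the highest of the 3, and array 1 was not measured. Without array 2 only arrays with ZFCUMNT in Cy3 remain, and the value was 1.13 ± 0.46 with no test. The other tested comparisons with ZFCUMNT did not pass for Apoe. They gave 0.00 ± 0.35 in HM-1 vs ZFCUMNT, 0.002 ± 0.35 in HM-1 NT vs ZFCUMNT and -0.70 ± 0.35 in PDCUMNT vs ZFCUMNT. HM-1 vs #4 (B6) was negative on all 4 arrays, at -1.22, -1.08, -0.23 and -0.48 (value -0.75 ± 0.35, unadjusted p = 0.0392, adjusted p close to 1). HM-1 vs PDCUMNT was positive on all 4, at 0.63, 0.20, 0.50 and 0.29 (0.40 ± 0.35, adjusted p = 0.812). In HM-1 vs B6NT all 4 were positive too, at 0.62, 0.39, 0.03 and 0.13 (0.29 ± 0.35, adjusted p close to 1).

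**Figure D5:**
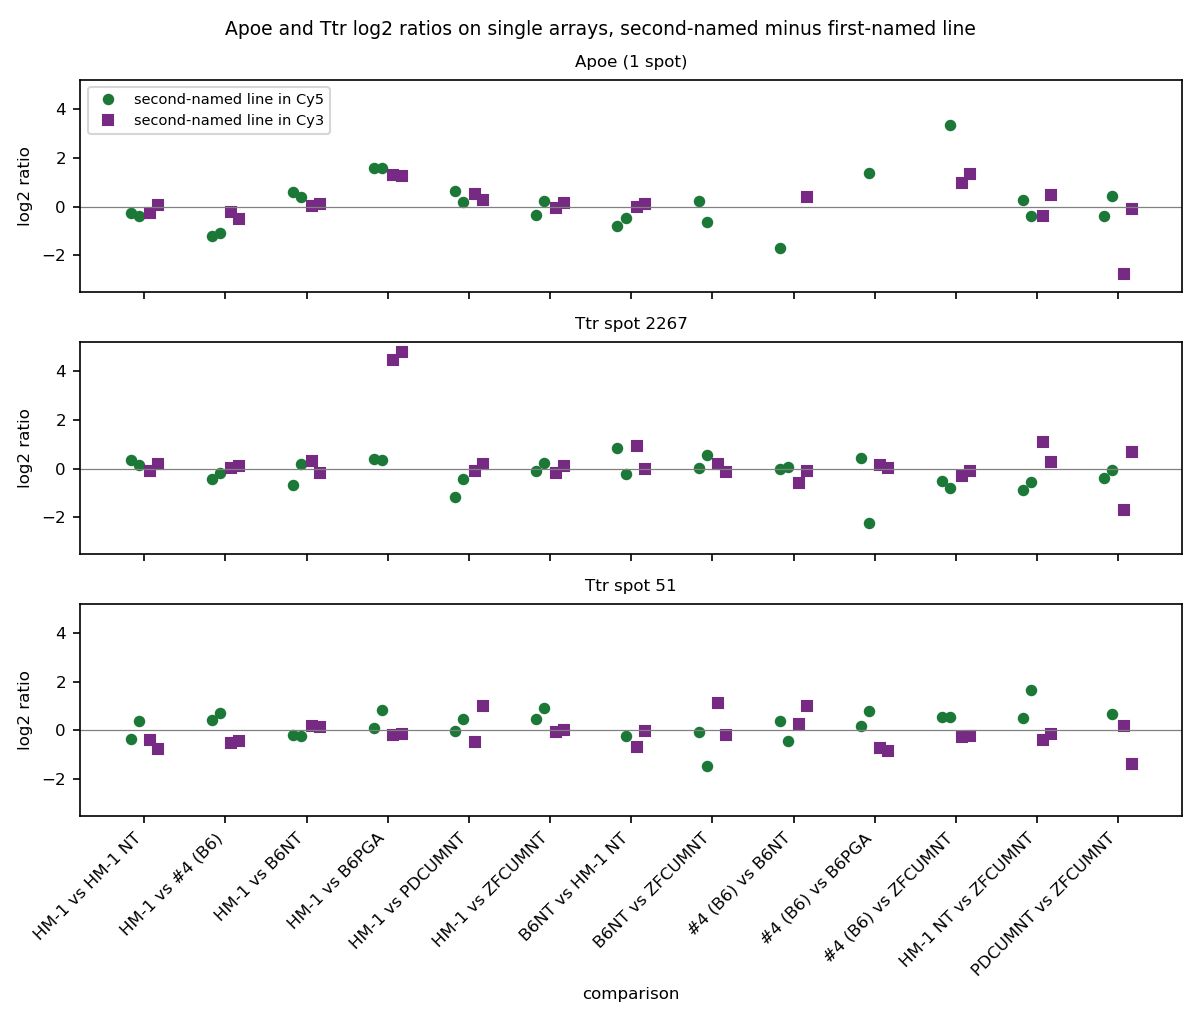
Log2 ratio on each array (points) of Apoe and of the 2 Ttr spots, by comparison, second-named minus first-named line, with circles for the second-named line in Cy5 and squares for Cy3. In HM-1 vs B6PGA the 4 Apoe arrays lie between 1.26 and 1.60, while Ttr spot 2267 lies at 4.45 and 4.76 on the arrays with B6PGA in Cy3 and at 0.38 and 0.35 on those with it in Cy5.

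By line Apoe was lowest in #4 (B6) (-0.88 ± 0.22), followed by HM-1 NT (-0.30 ± 0.21), B6NT (-0.19 ± 0.21), HM-1 (-0.17 ± 0.14), ZFCUMNT (-0.03 ± 0.17) and PDCUMNT (0.45 ± 0.26), and highest in B6PGA (1.12 ± 0.32). Of the 21 pairs of lines only B6PGA against #4 (B6) passed for Apoe, with a difference of 2.00 ± 0.42 (adjusted p = 0.00754, 0.592% of features called in that pair). Without the 3 comparisons of doubtful orientation the ends of the order were again #4 (B6) (-0.90 ± 0.34) and B6PGA (1.21 ± 0.40), and their difference, 2.11 ± 0.58, did not pass (adjusted p = 0.109, 0.517% called). On the arrays themselves that pair was compared for Apoe on 1 measured array, at 1.38, and the fitted difference also uses the comparisons with other lines. Leaving out any array of HM-1 vs B6PGA left the F over lines of Apoe short of the threshold (F from 4.24 to 4.41, adjusted p from 0.0525 to 0.0656).

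For likeness to Apoe, 6452 genes tested in all 13 comparisons were ranked over the 10 in which Apoe was tested. Those most like it were Thbs4 (Pearson r = 0.907), a matrix thrombospondin, Plcb4 (r = 0.899), a phospholipase C, and Mbp (r = 0.892), known as a myelin protein. None of the 3 passed the F-test over lines (adjusted p = 0.448, 0.400 and 0.704).

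Afp (Entrez gene 11576, chromosome 5), alpha-fetoprotein, a serum protein of visceral endoderm and fetal liver, was tested in all 13 comparisons and passed in none. Its most negative value was in HM-1 vs B6NT, where the 4 arrays gave -0.39, -0.64, -2.24 and -0.15. All 4 were negative, and the value was -0.85 ± 0.31 (unadjusted p = 0.00865, adjusted p = 0.464). Array 3 carried most of it, through spot 19709 at -5.61 there, and without that array the value was -0.44 ± 0.34 (adjusted p close to 1). By line Afp ran from -0.32 ± 0.14 in #4 (B6) to 0.25 ± 0.11 in HM-1.

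The 3 Afp spots differed from each other in #4 (B6) vs B6PGA. Spot 19709 gave 1.73, 1.96, 1.52 and 1.41 on the 4 arrays, all positive, for a value of 1.65 ± 0.58 (adjusted p over single spots = 0.182). Spot 19612 gave -1.72, 0.73, -2.19 and 1.02 and spot 19729 gave 0.11, -1.32, 0.30 and -0.23, with negative values of -0.54 ± 0.37 and -0.28 ± 0.44. Averaged over the spots, Afp was at 0.28 ± 0.31 there.

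The study holds 2 comparisons of a line with a line whose name adds NT, HM-1 vs HM-1 NT and #4 (B6) vs B6NT. Sparc was positive on 4 of 4 arrays in the first and negative on 4 of 4 in the second. The orientation of HM-1 vs HM-1 NT is doubtful, and with the ratios as they stand Sparc was at -0.0087 there and at 0.12 in #4 (B6) vs B6NT. A test of the difference, added after the values were seen, gave 1.06 ± 0.38 (unadjusted p = 0.00828, adjusted p = 0.506), where 0.197% of all features passed. Of the 8 members tested for this difference 0 passed in limma, and 1, Sparc, had an unadjusted p below 0.05, where 5.18% of all features had one. Gata6, Lama1, Lamc1, Ttr and Afp lay between -0.21 and 0.38 in both comparisons. Lamb1 was at -0.65 in the first and -0.44 in the second, and Dab2 at -0.28 and 0.46.

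Other genes of endoderm were few on the array, and most did not differ between the lines. In the F-test over lines 0 of 3 tested endoderm transcription factors and receptors passed, against 3.23% of all features, with a median F of 1.26 beside 1.17 over all features. Of 12 endoderm secreted and matrix proteins 1 passed, Lefty1 (adjusted p = 0.00881), a Nodal antagonist, which was highest in HM-1 (0.71 ± 0.15) and lowest in ZFCUMNT (-0.49 ± 0.17). In single comparisons 1 gene of this list passed, the fibrinogen chain Fgg in HM-1 NT vs ZFCUMNT (-2.75 ± 0.62, n = 3, adjusted p = 0.0374). Of visceral endoderm uptake genes 0 of 3 passed (median F 1.93).

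Genes that act with laminin gave a similar picture. Of other laminin chains 0 of 4 passed the F-test over lines (median F 2.10), against 3.23% of all features. Of laminin receptors 1 of 6 passed, Itgb1 (adjusted p = 0.0498), the beta 1 integrin, lowest in HM-1 (-0.36 ± 0.10) and highest in #4 (B6) (0.45 ± 0.14). These are also the ends of the order of Sparc. The direct comparison of these lines, HM-1 vs #4 (B6), is of doubtful orientation, and no fit without it is given for Itgb1. Of FGF and MAPK signalling genes 0 of 5 passed (median F 2.03).

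Other early cell types were covered by short lists. Of 10 tested pluripotency markers 5 passed the F-test over lines (Dppa5a, Klf4, Zfp42, Dppa3 and Pou5f1), against 3.23% of all features, with a median F of 5.47. Dppa3, a germ cell and early embryo factor, was lowest in HM-1 (-0.91 ± 0.12) as Sparc was, while Zfp42, known as Rex1, was highest there (1.80 ± 0.15). Klf4 and Dppa5a were lowest in #4 (B6), at -0.90 ± 0.08 and -1.56 ± 0.09, the line in which Apoe was lowest. Of 5 trophectoderm markers 2 passed, the keratin Krt8 and Ascl2, both highest in HM-1 NT (1.13 ± 0.24 and 0.41 ± 0.15). Of 2 tested primitive streak and definitive endoderm markers 0 passed. The part of these genes' differences in the values of the endoderm markers was not tested.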

How the data were processed

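Total RNA of mouse ES lines was reverse transcribed and labelled with Cy3 or Cy5, 20 µg per labelling, per the labels' protocols. Those protocols also speak of organs and of a pool of control animals, while the channel labels name ES lines in both channels. The values used are the log2 ratios deposited by the authors, 1 per spot and array. Their log base, numerator dye, background correction and normalization are not given in the sources used here, and log2 is a reading from their range. Arrays had 17620 to 20200 measured spots and medians from -0.209 to 0.469. The number of arrays limits the precision.

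Ratios were turned by the dye labels, the constant top value of an array was set to missing (chosen once the values had been looked at), and spots of a gene symbol were averaged, which left 17053 features. The comparison values came from limma 3.58.1 (R 4.3.3) on all 52 arrays, with 13 comparison coefficients and a dye term per feature. A feature needed 3 of 4 arrays and both dye orientations in a comparison. A further limma fit gave 7 line levels, with a moderated F-test for features on at least 39 arrays. P-values were adjusted by Benjamini-Hochberg over all features tested, with a threshold of 0.05. The fits were run on simulated data built with the labelled dye orientation, which cannot test that orientation. All 10 genes are described, genes of other lists are named if they passed a test, and the 3 genes most correlated with Sparc and with Apoe are named. The members and gene lists were chosen with earlier results of these data known. Alternatives were scaling, the dye term, filters, array weights, single spots, turning, a replicate block, and leaving out arrays or comparisons.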

Additional observations from a re-analysis of the deposited data

Results flagged for a closer look

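Of 95 sets of 4 arrays of a member in a comparison, 2 had an array far from the other 3, where chance alone gives about 1 in 20. Lama1 in HM-1 NT vs ZFCUMNT was at 2.97 on array 3 and between -0.78 and -0.45 on the other arrays. Lamb1 in #4 (B6) vs B6PGA was at -0.85 on array 4 and between 0.34 and 0.42 on the other arrays. Sparc was positive on each of the 4 arrays that set HM-1 NT against HM-1, but negative on 4 of 4 in #4 (B6) vs B6NT, a difference of 1.06 ± 0.38 (unadjusted p = 0.00828, adjusted p = 0.506 in limma). The orientation of the first of these comparisons is doubtful, and with the ratios as they stand Sparc was at -0.0087 in it and at 0.12 in the second.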

How the results depend on the processing

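With top values kept, Sparc in HM-1 vs B6PGA was 1.25 (adjusted p = 0.890), its F over lines was 2.08, and 1 member passed that F-test. Where no count of features stands beside a member count, as here, it has no background to be read against. With arrays scaled to equal spread Apoe in #4 (B6) vs ZFCUMNT was 1.51 (adjusted p = 0.119). Without the dye term 597 comparison values and 337 features in the line fit passed, and Apoe in HM-1 vs B6PGA was 1.44 (adjusted p = 0.0687). With every array required, 1 member passed in the line fit. With ratios as they stand, 0 members passed in the comparisons and 0 in the line fit (Apoe F 0.47, Sparc F 0.51), beside 4346 values and 35 features. There Ttr reversed to -0.90 in HM-1 vs B6PGA, Apoe was 0.16 and Sparc 0.046, Apoe in #4 (B6) vs ZFCUMNT was 0.34, and 55 of 106 values not called in the main fit changed sign. With array weights 1946 values and 852 features passed, and Apoe in #4 (B6) vs ZFCUMNT was 1.49 (adjusted p = 0.0595). Tested singly, 4 spots of members passed in the line fit. With each comparison fitted alone, 0 members and 0 features passed in limma, with 495 to 1766 features a comparison at an unadjusted p below 0.05. Apoe, Sparc and Ttr in HM-1 vs B6PGA were then 1.44, 1.25 and 1.32, and Apoe in #4 (B6) vs ZFCUMNT was 2.26. Apoe did not pass the F-test, leaving 1 member, without HM-1 vs HM-1 NT (F 4.46), HM-1 vs #4 (B6) (4.01), HM-1 vs B6NT (4.77, 331 features), HM-1 vs B6PGA (2.69), HM-1 vs PDCUMNT (4.54), HM-1 vs ZFCUMNT (4.54) or B6NT vs HM-1 NT (4.59). Without the 3 comparisons of doubtful orientation, an alternative chosen after the data were seen, 1 member and 182 features passed (Apoe F 3.30). Apart from the settings whose construction shows it, such as fewer arrays, the cause was not tested.

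Leaving out 1 array at a time gave 1 to 5 member calls and 958 to 1338 feature calls over the comparisons, and 1 to 2 members and 431 to 551 features in the line fit. The F of Apoe was 4.24 to 8.08 and that of Sparc 10.35 to 15.09. In HM-1 vs B6PGA, Apoe was 1.40 to 1.49, Sparc 1.10 to 1.35 and Ttr 0.99 to 1.67, and in #4 (B6) vs ZFCUMNT Apoe was 1.91 to 2.35. That range does not cover array 2, the highest, without which 1 dye orientation is left and the value was 1.13 with no test. Values that passed under an alternative but not in the main fit were Sparc in HM-1 vs PDCUMNT with centred arrays (0.99), Sparc in HM-1 vs #4 (B6) scaled (1.10) or weighted (1.17), Afp in HM-1 vs B6NT scaled (-1.18), Sox17 in HM-1 vs ZFCUMNT weighted (2.99) and Ttr in the F-test without #4 (B6) vs B6PGA (5.16). So did Gata6 in HM-1 NT vs ZFCUMNT without array 4 (2.45) and Sparc in HM-1 vs #4 (B6) without array 3 (1.29). Array numbers are only numbers and do not pair the samples. With a replicate block 4 member values and 1000 feature values passed, and 2 members and 473 features in the line fit, which changed no member's call.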
